A study of Arabidopsis thaliana with 27 samples.

Results

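The step from the bent to the mature embryo stage at 23 °C, the control temperature, was followed in whole seeds of Arabidopsis thaliana ecotype Col-0. It was chosen as the 3 libraries of bent seeds and the 3 libraries of mature seeds produced at 23 °C, 6 of the 27 libraries of the series. The series held heart, bent and mature seeds produced at 23 °C, 25 °C (mild heat stress) or 27 °C (severe heat stress), with 3 libraries in each of the 9 groups, each made from a pool of at least 50 seeds. All plants were untransformed wild type grown in soil and harvested as entire seeds, so embryo, endosperm and seed coat were sampled together. Bent and mature seeds at 23 °C shared the control regime from first flowers on, and stage was the only difference between them that the labels gave. The seeds at 25 °C and 27 °C served to ask whether the same change was found in libraries other than those compared at 23 °C. All 27 libraries shared the estimate of spread per gene. The study's methods call the replicates biological, but neither they nor the labels say whether these came from separate plants, so the p-values measure the spread between these samples, which may be technical in part.

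Seed maturation follows the patterning of the embryo. Cell division ends, and the embryo fills with storage proteins, packed in vacuoles, and with oil, packed in bodies coated by oleosins. The transcription factors LEC1, LEC2, FUS3 and ABI3 are the known master regulators of this phase, and abscisic acid (ABA) acts with them to install dormancy and tolerance of drying, for which late embryogenesis abundant (LEA) proteins are made. Meanwhile the seed coat completes its tannins and mucilage and deposits suberin, a waxy polyester that seals the seed.

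Estimated counts totalled 17779755 to 19445885 per bent library and 18158558 to 18414002 per mature library. They are given as normalised counts, that is counts per locus divided by the library's size factor. Pearson's r of log2 values across genes was 0.971 to 0.983 between bent replicates and 0.987 to 0.989 between mature replicates. Replicate 3 of the bent seeds stood apart. It lay furthest from the median of the 3 bent libraries for 62.0% of the genes, and its size factor was 0.829 against 1.075 and 1.044 in replicates 1 and 2. Relative to the mean of those 2 libraries, its normalised counts were lower for weakly expressed genes (median log2 difference -0.49 for 4139 genes at 10 to 100 counts) and higher for abundant ones (0.39 for 4119 genes at 1000 to 10000 counts and 0.87 for 134 genes above). Counts without this library are given for the lists that it moved most. A library outside the comparison also bore on it. Replicate 1 of the heart seeds at 23 °C held 0.666% of its counts in storage protein and oil body genes, against 0.0135% and 0.0167% in the other heart libraries. It entered the shared estimate of the spread. Without it the SE of the change of CRU3, a storage protein gene, was 0.61 in place of 0.88.

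In all, 21445 genes were tested, and 5017 were higher and 5780 lower in mature than in bent seeds (DESeq2, Benjamini-Hochberg adjusted p under 0.05, no fold threshold). These calls made up 23.4% and 27.0% of the genes tested. A log2 fold change of at least 1 in size was found for 1573 of the higher genes (7.34%) and 1850 of the lower genes (8.63%), and the median size of change was 0.609 and 0.641. All 3 mature libraries lay above all 3 bent libraries for 5381 genes (25.1%) and below them for 5722 (26.7%). Without bent replicate 3 the counts were 5024 higher (23.4%) and 5220 lower (24.3%), and 84.6% of the higher and 83.7% of the lower calls were kept. Directions are relative to the median gene. Scaled to library totals, the median gene moved by -0.23, and 2451 genes (11.4%) were higher and 8599 (40.1%) lower. Higher genes then made up 22.2% of the calls in place of 46.5%.

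**Figure D1:**
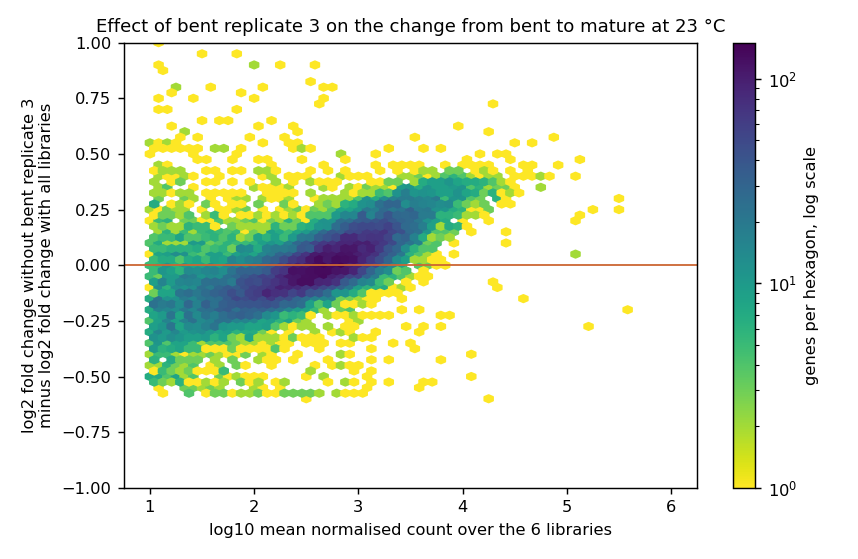
Difference between the log2 fold change without bent replicate 3 and that with all libraries (y axis, log2 units) against the log10 mean normalised count over the 6 libraries (x axis). Each hexagon is coloured by its number of genes, 19319 in all, with 57 genes outside the plotted range. Above 0 a fold change was more positive without that library, that is a smaller fall or a larger rise. Most genes at 1000 normalised counts or more lie above 0, and most at 10 to 100 lie below it.

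Storage protein genes rose to a large part of the mature seed transcriptome. Genes for storage globulins, 2S albumins and oil body proteins together held 1.02, 1.08 and 1.14% of the counts in the bent libraries and 15.2, 16.9 and 16.8% in the mature libraries, 15.1 times more on average. The 20 most abundant genes of each library held 5.40, 5.54 and 7.80% in the bent libraries and 19.2, 20.5 and 20.4% in the mature ones. With 3 libraries against 3, the exact two-sided permutation test cannot give a p below 0.1, and both differences reached 0.1. In whole seeds, more cells of a type and more RNA per cell cannot be told apart.

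Of the 8 genes of the storage globulin list (12S cruciferins, 7S vicilins and related cupins), 7 rose and none fell (23.4% of all genes were called higher), with a median log2 fold change of 4.20 against -0.02 for all genes. CRU3 (AT4G28520, chromosome 4, 14087556 to 14089796, assembly TAIR10.1), which encodes a cruciferin subunit, held 19345, 17963 and 12020.5 normalised counts in bent replicates 1, 2 and 3 and 702458, 796779 and 751801 in the mature ones. Its log2 fold change was 5.51 ± 0.88 (SE), with an adjusted p of 3.43e-09. CRU2, another cruciferin gene, stood at 10948, 7599.7 and 4359 in bent and 312806, 343397 and 330697 in mature seeds, a change of 5.43 ± 0.82. For both genes bent replicate 3 was the lowest library, and the groups were far from overlapping. The uncharacterised cupin gene AT1G03890 showed the largest change of the list at 5.56 ± 1.11, from 977, 554 and 89.3 to 24938, 25769 and 25624. The vicilin-like gene PAP85 reached 48433, 55563 and 49583 from 2723, 2849 and 3683, a change of 4.05 ± 0.99. AT4G36700 was already abundant in bent seeds, at 12146, 13202 and 20775 normalised counts, and its change to 41575, 39828 and 35164 was the smallest of the list (1.34 ± 0.34). CRA1, the remaining cruciferin gene, had 21739.7, 27529 and 39042 normalised counts in bent and 538148, 648630 and 620516 in mature seeds. DESeq2 withheld its p as an outlying count was found among the 27 libraries. With replicate 1 of the heart seeds left out of the fit, CRA1 changed by 4.35 ± 0.36 with an adjusted p of 2.91e-32. All 23 storage and oil body genes then passed the test, against 21 with all libraries.

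The 2S albumins are small sulphur-rich storage proteins encoded mostly by a tandem cluster on chromosome 4, whose near-identical reads the counting may divide among copies. All 5 genes rose, against 23.4% of all genes. SESA3 (chromosome 4, 13611796 to 13612563) went from 25231, 22994 and 41502 to 562378, 613656 and 629466 normalised counts, a change of 4.33 ± 0.91 with an adjusted p of 9.03e-06. SESA1 had 1848, 1893 and 1345 in bent and 68966, 77964 and 92896 in mature seeds, the largest change of the list at 5.56 ± 0.90. The order of the bent libraries was not the same for these genes. Replicate 3 was the highest for SESA3 and the lowest for SESA1. Summed over SESA1 to SESA4, which removes any division among these copies, the counts were 49772, 46518 and 73069 in bent and 1216435, 1319258 and 1356674 in mature seeds, a log2 ratio of means of 4.52. Per length, SESA3 was the most abundant of the albumins, with a mean level of 2652 TPM (counts divided by effective length and scaled to a common total) in bent and 47254 in mature seeds. CRU3 and CRA1 reached 14783 and 14799.8 TPM in mature seeds.

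Oil bodies are coated by oleosins, which keep them small, and carry caleosins and steroleosins. Of the 10 genes of this list 9 rose and none fell, against 23.4% and 27.0% of all genes. The median change was 2.61 (2.78 without bent replicate 3). Scaled to library totals 6 were called higher (11.4% of all genes). OLEO1, the main seed oleosin gene, held 14387, 17083 and 32565 normalised counts in bent and 139115, 148229 and 142950 in mature seeds (2.75 ± 0.72, adjusted p 0.000509). Bent replicate 3 was the highest of its group for OLEO1 and for OLEO2, which went from 8927, 11308 and 20198 to 66941, 68627 and 65829 (2.32 ± 0.65). OLEO3 changed least. It had 9573, 11230 and 20792 in bent and 23073, 23091 and 21649 in mature seeds, a change of 0.71 ± 0.31 with an adjusted p of 0.0448. Leaving out any 1 of the 6 libraries other than bent replicate 3 ended this call, as did edgeR (adjusted p 0.0605), whereas without bent replicate 3 the change was 1.12 (adjusted p 0.00091). The caleosin genes ATS1 and ATPXG2 changed by 3.51 ± 1.02 and 4.81 ± 0.95, the latter from 229, 172 and 119 to 4393, 5042 and 5196. HSD1, a steroleosin gene, has a near-identical copy, AT5G50700. HSD1 was at 1047, 1461 and 0 in bent seeds, and its copy was at 80, 0 and 1816. Summed, the pair gave 1127, 1461 and 1816 in bent and 32157, 41163 and 35304 in mature seeds, a log2 ratio of means of 4.62 in place of the fitted 5.40 for HSD1 alone. AT3G01570, an oleosin family gene, had its adjusted p withheld in the same way as CRA1. Its change was 1.86 with an adjusted p of 2.48e-10 without heart replicate 1.

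**Figure D2:**
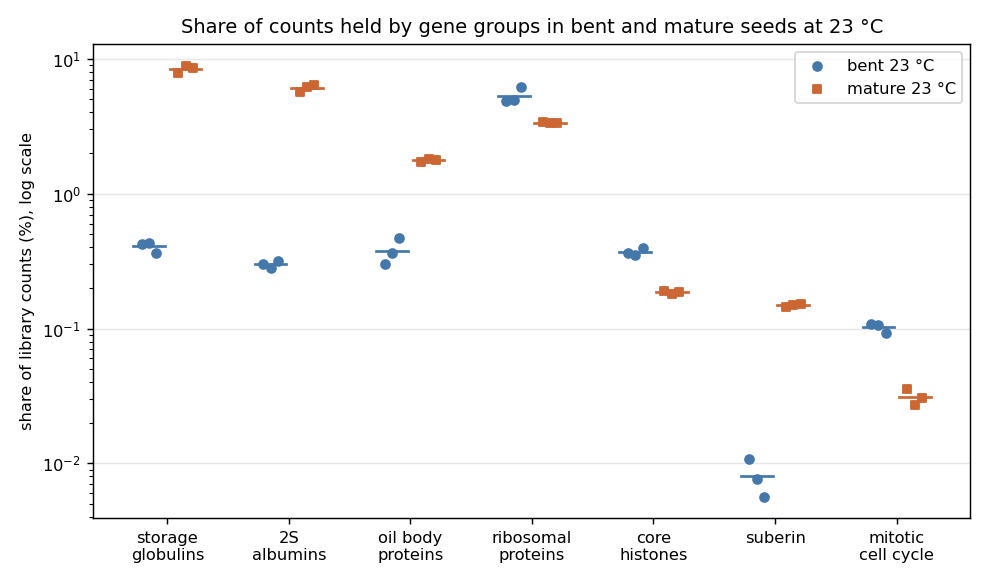
Share of library counts in percent (y axis, log scale) held by 7 gene groups (x axis) in each bent library (circles) and each mature library (squares) at 23 °C, with the mean of 3 libraries as a line. The 3 storage groups and the suberin genes lie higher in all mature libraries than in any bent library, and the ribosomal protein, histone and mitotic genes lie lower.

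These genes moved together, and the 250 bases upstream of the annotated gene start were read from the TAIR10.1 genome (RefSeq) for the genes tested, 21376 of which gave a sequence. Each was searched on both strands for the RY motif CATGCA, the core of the ABA-responsive element (ABRE) ACGTGT or ACGTGG, the G-box CACGTG and the telo-box AAACCCTA. The ABRE core and the G-box overlap in part, and 1400 of the 1569 promoters with a G-box also held the ABRE core. The RY motif was present in 21 of the 23 storage and oil body promoters (91.3%), against 8.01% of all promoters, and the ABRE core in 15 (65.2%), against 3639 of the 21376. Among the 40 LEA promoters the shares were 12.5% and 57.5%. Among the 13 suberin promoters RY was present in 1 (7.69%) and the ABRE core in 2 (15.4%). The telo-box was found in 14.3% of 328 ribosomal protein promoters and in 3.76% of all. Of the genes higher by a log2 of at least 1, 14.5% held RY and 26.9% the ABRE core, and of the genes lower by as much, 9.63% and 16.2%. Among the 8 storage globulin promoters RY was present in 6 and the ABRE core in 4. The CRU2 promoter held none of the 4 motifs. Such matches are a description of the sequence only. The promoters of SESA1, OLEO1 and CRU3 are shown as storage and oil body genes, PER1 as a gene of the dry seed whose promoter held the ABRE core without RY, and GPAT5 as a suberin gene with none of the 4 motifs. Each is given 5′ to 3′ in the direction of the gene, ending at the base before its start, with motif matches in capitals.
SESA1 (chr4:13607079-13607328, plus strand): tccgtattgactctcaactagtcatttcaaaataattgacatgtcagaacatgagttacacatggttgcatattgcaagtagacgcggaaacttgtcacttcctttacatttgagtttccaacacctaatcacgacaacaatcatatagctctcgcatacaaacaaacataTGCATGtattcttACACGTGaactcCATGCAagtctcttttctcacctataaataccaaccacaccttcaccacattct
OLEO1 (chr4:12900180-12900429, plus strand): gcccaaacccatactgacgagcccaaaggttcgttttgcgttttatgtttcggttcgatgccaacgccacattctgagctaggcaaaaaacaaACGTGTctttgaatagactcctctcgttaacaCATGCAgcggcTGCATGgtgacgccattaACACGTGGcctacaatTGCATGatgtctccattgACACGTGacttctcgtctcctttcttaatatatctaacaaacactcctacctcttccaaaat
CRU3 (chr4:14087306-14087555, plus strand): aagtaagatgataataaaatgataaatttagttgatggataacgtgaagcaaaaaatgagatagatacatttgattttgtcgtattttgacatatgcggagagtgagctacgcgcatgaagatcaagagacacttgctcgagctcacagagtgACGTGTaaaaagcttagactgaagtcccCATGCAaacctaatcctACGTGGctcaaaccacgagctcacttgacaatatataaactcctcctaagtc
PER1 (chr1:17780179-17780428, plus strand): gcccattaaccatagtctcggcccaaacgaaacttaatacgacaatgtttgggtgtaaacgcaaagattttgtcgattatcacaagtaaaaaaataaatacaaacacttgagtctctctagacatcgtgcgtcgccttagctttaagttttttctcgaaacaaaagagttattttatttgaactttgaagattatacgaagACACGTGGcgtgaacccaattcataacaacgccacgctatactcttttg
GPAT5 (chr3:3595444-3595693, plus strand): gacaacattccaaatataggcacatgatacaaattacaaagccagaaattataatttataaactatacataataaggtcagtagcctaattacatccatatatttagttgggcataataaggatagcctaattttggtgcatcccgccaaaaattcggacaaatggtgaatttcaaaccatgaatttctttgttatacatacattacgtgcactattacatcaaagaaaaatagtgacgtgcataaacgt

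Most LEA genes rose. LEA proteins are hydrophilic and are known to protect cells during drying. The list held 57 genes, of which 40 passed the filter on low counts. Of these 25 rose and 5 fell, against 23.4% and 27.0% of all genes, with a median of 1.41. Without bent replicate 3 the counts were 26 and 5. LEA (AT2G21490, a dehydrin gene, chromosome 2, 9205990 to 9207125) held 232, 185 and 94.1 normalised counts in bent and 6338, 7842 and 6664 in mature seeds, a change of 5.35 ± 0.96 with an adjusted p of 2.09e-07. The largest change was that of AT3G17520 at 5.42 ± 0.72, from 43.7, 71.9 and 30.2 to 1953, 2305 and 1982. AT5G44310 rose from 155, 129 and 118 to 3089, 3589.6 and 2887 (4.57 ± 0.75). In each of these genes the mature libraries lay far above the highest bent library. The ABA-responsive dehydrin gene RAB18 rose from 61.4, 58.4 and 57.9 to 527, 755 and 589 (3.40 ± 0.39), and LEA4-5, a group 4 LEA gene, from 24.2, 24.9 and 30.2 to 553, 678 and 448 (4.41 ± 0.37). Among the 5 that fell, ERD14, a dehydrin gene, had 7549, 8070.1 and 14086 in bent and 5986, 5566 and 5454 in mature seeds (-0.80 ± 0.15), with bent replicate 3 far above the others. The largest decrease was that of AT3G24605 (-1.41 ± 0.20). The EM genes, whose transcripts are known to gather late in maturation, were still low. EM1 held 0, 0.958 and 4.83 normalised counts in bent and 19.1, 21.9 and 38 in mature seeds (3.86 ± 1.18, adjusted p 0.0031). GEA6 (EM6) had 0 estimated counts in each bent library and 9, 3 and 17 in the mature libraries, too few to be tested. In the separate family of LEA hydroxyproline-rich glycoproteins, whose members are related to defence genes, 8 of 32 tested genes rose and 5 fell (23.4% and 27.0% of all genes) with a median of -0.05. Without bent replicate 3 these were 5 and 4. AT1G54540 changed most (4.63 ± 0.79).

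The master regulators did not move as a block. Of 18 maturation regulators 17 were tested, and 8 rose and 4 fell, against 23.4% and 27.0% of all genes. Their median was 0.27. LEC1 (chromosome 1, 7727577 to 7729649), an NF-YB subunit that acts early in embryo development, held 1273, 952 and 1219 normalised counts in bent and 288, 188 and 230.4 in mature seeds, a change of -2.28 ± 0.19 with an adjusted p of 2.21e-32. LEC2, a B3 domain factor, went from 220.4, 177 and 193 to 61, 83.9 and 42.8 (-1.66 ± 0.24). These 2 genes fell without any overlap between stages. The other B3 factors rose. FUS3 went from 2598, 2779 and 4129 to 5327, 5048 and 4731 (0.67 ± 0.22) and ABI3 from 2409, 2748 and 2876 to 5034, 5113 and 4875 (0.90 ± 0.21, adjusted p 8.38e-05). The LEC1 relative NF-YB6 (L1L) had 3833, 4094 and 6218 in bent and 5015, 4766 and 4417 in mature seeds, and the 2 groups overlapped. The bZIP factors EEL and DPBF2 rose by 1.08 ± 0.23 and 1.41 ± 0.30, and ABI5, a bZIP factor of the ABA response, by 0.77 ± 0.15, from 139, 165 and 111 to 202, 284 and 226. The values of BZIP53, another bZIP factor of storage gene promoters, were 1012, 956 and 1617 and 1155, 1357 and 1219.7, and its change passed the test without bent replicate 3 but not with all libraries (0.34, adjusted p 0.000149). The largest change was that of AGL67 (chromosome 1, 29306824 to 29311194), a MADS-box gene, at 5.29 ± 0.84. Its normalised counts were 52.1, 30.7 and 18.1 in bent and 1151, 1370 and 1425 in mature seeds. WRI1, the activator of fatty acid synthesis genes, had 3770.1, 3269 and 5178 and 2888, 2286 and 2955, with a change of -0.59 ± 0.20 that did not pass the test without bent replicate 3 (adjusted p 0.113) or without mature replicate 2. MYB118 fell by 0.65 on the log2 scale. HSFA9, a seed-specific heat shock factor, held at most 1 count in any of the 6 libraries. Scaled to library totals, 6 regulators were higher and 5 lower.

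**Figure D3:**
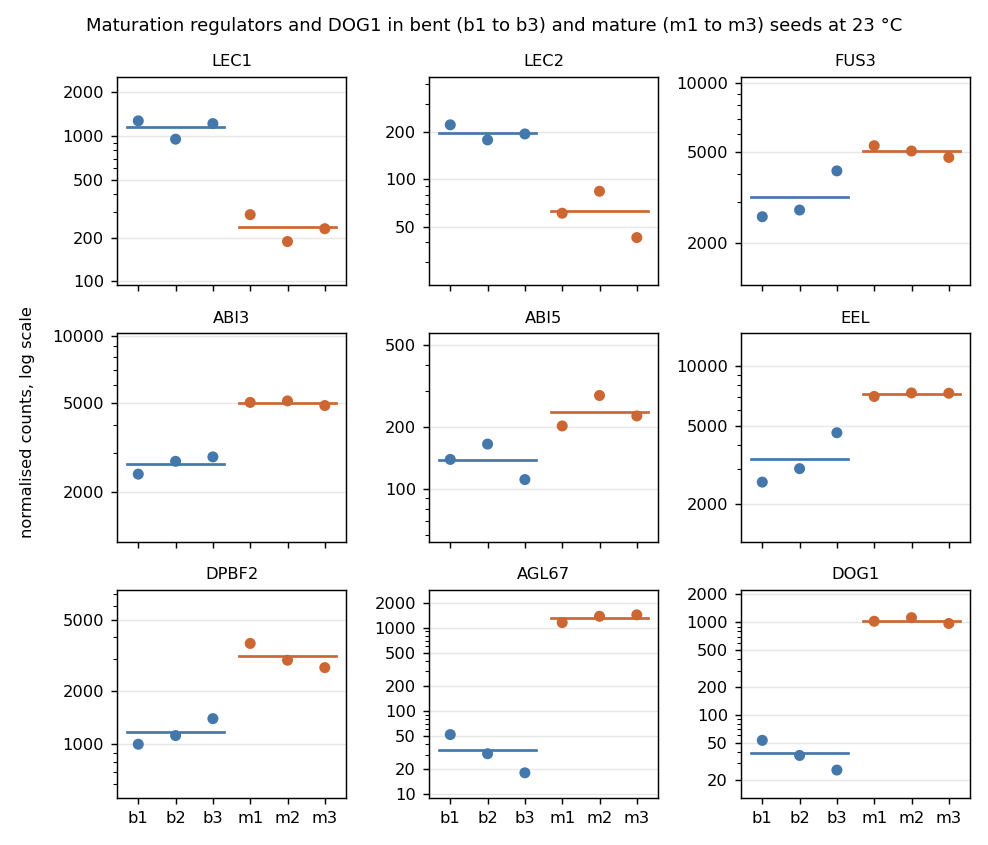
Normalised counts (y axis, log scale) of 8 maturation regulators and of DOG1 in bent replicates b1 to b3 and mature replicates m1 to m3 at 23 °C, with the group means as lines. LEC1 and LEC2 lie lower in all mature libraries, the others lie higher, and AGL67 and DOG1 show the widest gaps.

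All 5 dormancy genes rose (23.4% of all genes were called higher), and 3 did with library totals (11.4% of all genes). DOG1 (chromosome 5, 18589418 to 18591506), the main determinant of dormancy depth between natural accessions, held 53, 36.4 and 25.3 normalised counts in bent and 1027, 1124 and 972 in mature seeds, a change of 4.76 ± 0.76 with an adjusted p of 3.95e-09. AT4G18650, a related gene, rose from 20.5, 39.3 and 16.9 to 334, 213 and 229 (3.33 ± 0.49). E12A11, better known as MFT, went from 3332, 4107 and 5684 to 11172, 10239 and 9387. Its change of 1.23 ± 0.52 had an adjusted p of 0.0392 and was lost when any 1 of the 6 libraries other than bent replicate 3 was left out. With library totals the adjusted p was 0.0777. Without heart replicate 1 the adjusted p was 1.53e-08. The histone ubiquitin ligase gene HUB1 rose by 0.33 ± 0.06, a small but even change from 916, 927 and 874 to 1172, 1183 and 1076. Scaled to library totals it was 0.10 (adjusted p 0.416).

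Genes of ABA synthesis differed from each other within 1 family. Of 8 tested genes 5 rose and 1 fell (3 and 1 with library totals), against 23.4% and 27.0% of all genes, with a median of 0.33. The NCED genes encode the step that limits ABA synthesis. NCED6, known from the endosperm, rose from 474, 529 and 415 to 1341, 1169 and 1025 (1.32 ± 0.15, adjusted p 1.04e-17), whereas NCED9 fell from 1559, 1484 and 1765 to 814, 429 and 329 (-1.61 ± 0.55, adjusted p 0.00862). The call of NCED9 was lost without mature replicate 3. The largest change was that of NCED2 at 1.99 ± 0.53, at low counts of 3.72, 3.83 and 8.45 and 16.7, 23.1 and 21.4. ABA2 rose by 0.65 ± 0.11. None of the 4 CYP707A genes, which encode the enzymes that break ABA down, passed the test in either direction, with a median of 0.22. The clade A protein phosphatases (PP2C) hold back ABA signalling until ABA is bound by its receptors. Of 9 genes 7 rose and none fell, with a median of 0.48, and all 9 were higher in every mature library than in any bent library (25.1% of all genes). With library totals 4 were called higher. AHG1, a seed-specific member, rose from 14.9, 16.3 and 8.45 to 128, 145 and 160.3 (3.43 ± 0.39), and HAI1 from 4868, 5816 and 8523 to 10189, 11154 and 8854 (0.65 ± 0.14).

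Gibberellin opposes ABA at germination. Of 7 tested genes of its synthesis 1 rose (GA20OX2, 0.56 ± 0.15) and 1 fell (GA3OX3, -1.24 ± 0.45), against 23.4% and 27.0% of all genes, and with library totals none rose and 3 fell. The call of GA3OX3 was lost without bent replicate 1 or mature replicate 1. Of 5 tested genes of its inactivation GA2OX4 fell (-1.97 ± 0.41) and none rose. Among the DELLA repressors and GID1 receptors 3 of 8 rose and 2 fell (1 and 3 with library totals). The receptor gene GID1B showed the largest change of these, from 92.1, 70.9 and 49.5 to 17.9, 30.4 and 27.3 (-1.50 ± 0.34), and the related gene GID1A changed the other way (0.38 ± 0.11).

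Of 8 genes of oil assembly and modification 5 rose and none fell, with a median of 1.07 (6 and 1 without bent replicate 3). Of 15 plastid genes of fatty acid synthesis 2 rose and 1 fell, against 23.4% and 27.0% of all genes, with a median of -0.18. Fatty acid desaturase genes were in the first list. FAD3, which encodes the enzyme that makes linolenic acid, rose from 2647, 2558 and 3675 to 11862, 13832 and 13714 (2.15 ± 0.18, adjusted p 5.62e-31), and FAD2 changed by 0.52 ± 0.16, from 20192, 21154 and 40241 to 36663, 40355 and 40279. Bent replicate 3 overlapped the mature libraries for FAD2, and the call was lost without bent replicate 1 or 2. The sucrose synthase genes SUS2 and SUS3, which feed carbon into the filling seed, rose by 2.11 ± 0.48 and 2.42 ± 0.25, the latter, the largest change of its list, from 206, 248 and 208 to 1208, 1159.7 and 1185. The elongase gene KCS18 (FAE1) had 3094, 3739 and 4909 in bent and 9942, 9546 and 8757 in mature seeds, with an adjusted p of 0.156 (4.92e-09 without heart replicate 1). The groups did not overlap. In the plastid list, SSI2, a stearoyl-ACP desaturase gene, rose by 0.60 ± 0.13. Bent replicate 3 was the highest bent library for all 15 plastid genes, for example BCCP2 with 6624, 6974 and 12144 against 8702, 8569 and 7815. Without it 6 of the 15 rose, none fell, and the median was 0.16, and with library totals 2 rose and 9 fell.

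Genes for the use of oil after germination rose as well. Isocitrate lyase (ICL) and malate synthase (MLS) form the glyoxylate cycle. ICL rose from 235, 329.6 and 282 to 3157, 4182 and 4147 (3.76 ± 0.33, adjusted p 5.87e-28) and MLS from 105, 152 and 146 to 734, 952 and 797 (2.62 ± 0.28). PCK1, the gluconeogenesis gene, had 5141, 6285 and 9681 and 8029, 8967 and 9396 with an adjusted p of 0.0615, and it passed the test without bent replicate 3 (0.62, adjusted p 7.32e-08). Raffinose family sugars gather late in maturation. Of 5 tested genes 2 rose, stachyose synthase STS by 1.91 ± 0.25 and SIP1 by 1.36 ± 0.26, and SIP2 fell by 0.97 on the log2 scale. Over all genes 23.4% rose and 27.0% fell. Among the catalase and peroxiredoxin genes 3 of 4 rose. PER1, a peroxiredoxin gene of the dry seed, went from 798, 748 and 842 to 11799.8, 11407 and 11351 (3.85 ± 1.00, adjusted p 0.000439). Of the 4 vacuolar processing enzymes, proteases that cut storage proteins, ALPHA-VPE and BETA-VPE rose (1.40 ± 0.30 and 1.43 ± 0.23) and DELTA-VPE, known from the seed coat, fell (-1.15 ± 0.21).

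The genes of cell division all fell. All 19 mitotic genes and all 8 replication licensing genes fell (27.0% of all genes were called lower), with medians of -1.33 and -1.68. All 27 also fell without bent replicate 3 and when scaled to library totals. CYCB1;3, a B-type cyclin gene, had 509.6, 464 and 457 normalised counts in bent and 99.3, 62 and 86.7 in mature seeds, the largest mitotic change (-2.53 ± 0.28, adjusted p 2.11e-18). PCNA1, the sliding clamp of DNA replication, fell from 603, 590.2 and 665 to 149.5, 106 and 119 (-2.31 ± 0.22, adjusted p 2.57e-23). Within each of these 2 genes the bent replicates lay close together and far above the mature ones. SYP111 (KNOLLE), the syntaxin of the dividing plate, fell from 4351, 4248 and 6543 to 1740.2, 1343 and 1375 (-1.76 ± 0.24). The MCM genes, which encode the replicative helicase, fell by 1.46 (MCM3) to 1.81 (PRL, also called MCM7) on the log2 scale. Core histones, made mainly in S phase, followed. Of 41 tested genes none rose and 33 fell, with a median of -1.21 (3 and 32 without bent replicate 3, median -0.97). The H3 gene AT1G09200 fell most (-2.23 ± 0.24), from 1787, 1602 and 2523 to 511, 354 and 395. Some histone genes are near-identical, so reads may be divided among them. The histones held 0.371 ± 0.0248% of the counts in bent and 0.186 ± 0.00516% in mature seeds (mean ± SD, n = 3, exact permutation p 0.1, the smallest possible).

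DNA methyltransferases that act at replication fell with these genes. MET1, which maintains CG methylation, fell from 1578, 1635 and 1521 to 849, 735 and 669.8 (-1.07 ± 0.11), CMT3, the CHG methyltransferase, from 1013, 1003 and 1127 to 321, 276 and 266 (-1.86 ± 0.17, adjusted p 5.59e-27), and the remodeller gene CHR1 (DDM1) by 1.29 on the log2 scale. DRM2, which methylates by way of small RNAs, rose by 0.35 ± 0.08, and CMT2 by 0.28 ± 0.10, a call lost without bent replicate 1 or mature replicate 2. Of the 4 demethylase genes DML3 rose from 11.2, 14.4 and 10.9 to 99.3, 130.1 and 151, the largest change of the list (3.38 ± 0.36), and DML2 by 0.39 ± 0.07. DML1 (ROS1) had 3678, 5749 and 5389.5 in bent and 5056, 6959 and 5587 in mature seeds, with a wide spread within each stage and an adjusted p of 0.117. In all, 4 of the 10 genes rose and 3 fell (1 and 3 with library totals), against 23.4% and 27.0% of all genes.

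Ribosomal protein genes were lower in mature seeds, but the size of this change rested on bent replicate 3. Of 328 tested genes 5 rose and 253 fell, against 23.4% and 27.0% of all genes, with a median of -0.48. That library was the highest bent library for 282 of the 328. Without it 10 rose and 185 fell (23.4% and 24.3% of all genes), and the median was -0.23. Ribosomal transcripts held 4.84, 4.97 and 6.20% of the counts in the bent and 3.40, 3.32 and 3.34% in the mature libraries, so both other bent libraries lay above every mature library as well. The gene emb2394, a plastid ribosomal protein L6, showed 2443, 2589.8 and 4106 and 1396, 1292 and 1278 (-1.20 ± 0.15). AT5G09490 had the largest decrease (-4.09 ± 1.52) at very low counts, a call lost without bent replicate 1 or mature replicate 1 or 2, and AT5G15750 rose (1.30 ± 0.15).

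Photosynthesis genes gave a direction that depended on the same library. Among 54 tested photosystem and light-harvesting genes 3 rose and 12 fell (5.56% and 22.2%, against 23.4% and 27.0% of all genes). Their median was -0.19, and bent replicate 3 was the highest bent library for 48 of them. Left out, it gave 17 that rose and 7 that fell (23.4% and 24.3% of all genes), and a median of 0.09. Scaled to library totals 2 rose and 37 fell (11.4% and 40.1% of all genes). PSBQA, a subunit of photosystem II, fell in either case (-0.99 ± 0.16, and -0.69 without bent replicate 3), from 2633, 2760.3 and 4570.3 to 1662, 1639 and 1708. Chlorophyll synthesis and breakdown moved apart. Of 13 tested synthesis genes 1 rose and 8 fell (6 without bent replicate 3), and of 7 breakdown genes 5 rose and none fell (7 and none without bent replicate 3). The protochlorophyllide reductase gene PORC (listed as POR C) fell from 1049, 972 and 1088 to 393, 369.5 and 344 (-1.49 ± 0.11, adjusted p 3.65e-39). The synthesis gene CH1, chlorophyll a oxygenase, rose by 0.39 ± 0.10. NYE1 (SGR1), which starts the dismantling of chlorophyll, rose from 1165, 1223 and 1642 to 3189, 2753 and 2442 (1.06 ± 0.18), and its relative AT4G11910 from 178, 229.9 and 166 to 451, 475 and 380.1 (1.18 ± 0.16). Organelle transcripts were rare in these libraries, which were enriched for mRNA. Chloroplast loci held 0.00713 ± 0.00136% of the counts in bent and 0.00551 ± 0.00231% in mature seeds (exact permutation p 0.3), and mitochondrial loci 0.00242 ± 0.000337% and 0.00269 ± 0.000589% (exact permutation p 0.6, n = 3).

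Suberin genes had the largest median change of the lists examined, 4.95 against 4.73 for the 2S albumins. Suberin is built from long-chain acids, alcohols and ferulate, and in the seed it is laid down in the coat. All 13 genes of the list rose, against 23.4% of all genes. Their summed share of counts was 0.0108, 0.00770 and 0.00565% in the bent and 0.145, 0.149 and 0.153% in the mature libraries. The largest change was that of CYP86A1, a fatty acid hydroxylase gene, with 1.86, 18.2 and 6.03 normalised counts in bent and 712, 456 and 698 in mature seeds (6.15 ± 0.70, adjusted p 4.25e-17). GPAT5 (chromosome 3, 3595694 to 3597952), whose enzyme joins the acids to glycerol, went from 23.2, 14.4 and 2.41 to 671, 624 and 695 (5.60 ± 0.48, adjusted p 1.97e-29). RWP1 (ASFT), which adds ferulate, went from 664, 351 and 281 to 13811, 13432 and 12827 (4.95 ± 0.42). For all 3 genes the bent replicates differed among themselves by more than the mature ones did on the log scale, yet no library of the one stage came near the other. Of the fatty acyl reductase genes, which make the alcohols, FAR1 was at 55.8, 47.9 and 36.2 and 619.5, 762 and 843 (3.99 ± 0.48), and FAR4 and FAR5 stood at no more than 3 normalised counts in any bent library. Among the exporters ABCG6 rose by 5.98 ± 0.57, ABCG20 by 4.87 ± 0.63 and ABCG2 by 3.32 ± 0.43. The regulators of seed coat suberin rose with them, MYB9 (chromosome 5, 5514717 to 5517153) from 53, 18.2 and 6.03 to 1067, 1484 and 1558 (5.71 ± 0.52) and MYB107 (chromosome 3, 661849 to 664011) from 80, 108 and 96.5 to 1324, 1236 and 1014 (3.65 ± 0.31). FACT, which adds caffeate, was the exception in size and stability. It had 8.37, 4.79 and 6.03 in bent and 8.37, 59.6 and 51.1 in mature seeds, so mature replicate 1 lay within the bent range, and its call (2.63 ± 1.05, adjusted p 0.0262) did not hold when bent replicate 2 or 3 or mature replicate 2 or 3 was left out (adjusted p 0.0617 without bent replicate 3).

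The change of the suberin genes was found again at 25 °C and was smaller at 27 °C. At 25 °C, in 6 other libraries, all 13 rose (genes called higher there were 23.4% of all), with a median of 6.40. A larger fitted change than at 23 °C was found for 12 of them. Mature replicate 1 at 25 °C was the highest mature library there for most of the genes. GPAT5 had 1294, 587 and 346 in mature seeds at 25 °C, against 671, 624 and 695 at 23 °C. A fit without that library was not made. At 27 °C 7 rose (24.6% of all genes) with a median of 1.34, and the change was smaller than at 23 °C for 10 of the 13 by the test of the difference (DESeq2 interaction, lower for 3.28% of all genes). By edgeR this was so for 8 of the 13 (2.81% of all genes). All 13 genes were higher in every bent library at 27 °C than in every bent library at 23 °C. The mature mean was also higher at 27 °C than at 23 °C for 9 of the 13. GPAT5 averaged 13.3 ± 10.5 normalised counts in bent seeds at 23 °C and 621 ± 214 at 27 °C (SD, n = 3), and its change at 27 °C was 1.15 (interaction adjusted p 8.87e-10). For MYB107 the bent mean was 94.9 ± 14.2 at 23 °C and 599 ± 142 at 27 °C, and its change at 27 °C was -0.43 (interaction adjusted p 2.34e-17). FAR1, FAR4 and FACT were the 3 genes whose difference did not pass the test.

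**Figure D4:**
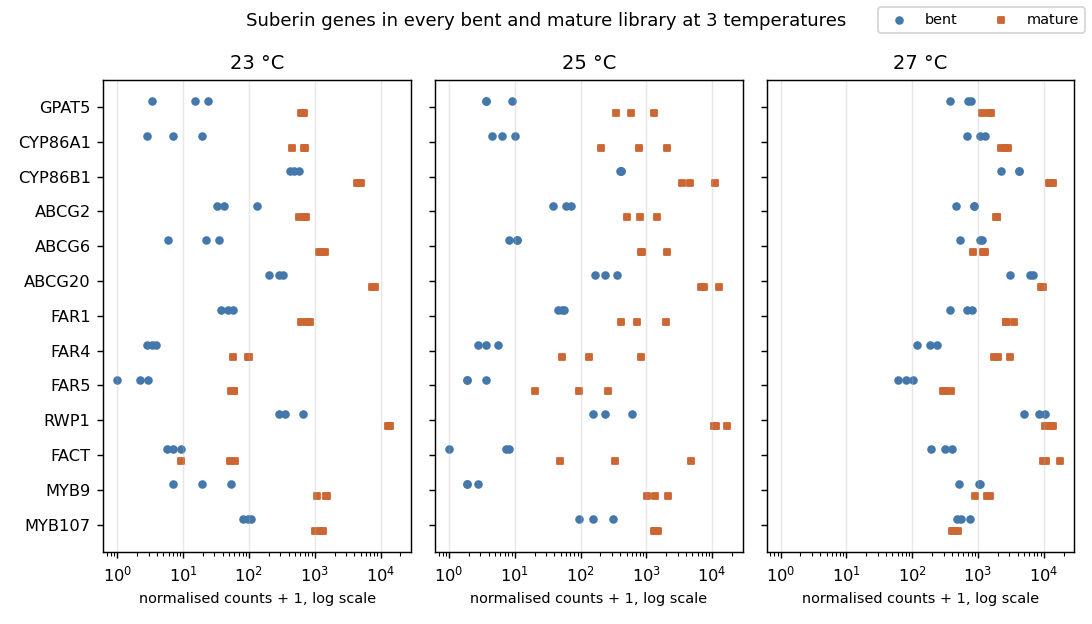
Normalised counts plus 1 (x axis, log scale) of the 13 suberin genes (y axis) in each bent library (circles) and each mature library (squares) at 23, 25 and 27 °C. At 23 °C and 25 °C the stages are far apart for nearly all genes, while at 27 °C the bent libraries have moved towards the mature ones.

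Genes of the other seed coat products mostly fell. Tannins (proanthocyanidins) are made in the inner coat early in seed growth. Of 15 genes 1 rose and 13 fell, against 23.4% and 27.0% of all genes, with a median of -1.25 (-1.38 without bent replicate 3). With library totals none rose and 14 fell (11.4% and 40.1% of all genes). LDOX (chromosome 4, 12004726 to 12006209), which encodes leucoanthocyanidin dioxygenase, went from 3077, 2069 and 3085 to 154, 105 and 90.3 normalised counts, the largest change of the list (-4.56 ± 0.28, adjusted p 4.7e-56). BAN, the anthocyanidin reductase gene, fell from 6777, 5719 and 10161 to 758, 614 and 500 (-3.60 ± 0.21), and DFR from 2855, 1899.9 and 2832 to 397, 250.4 and 265 (-3.06 ± 0.24). The early flavonoid genes changed less, TT4 (chalcone synthase) by -0.86 ± 0.19 and TT7 by -0.60 ± 0.15, and F3H rose by 0.45 ± 0.18. The call of F3H was lost with library totals (adjusted p 0.226) and without any 1 of bent replicates 1 and 2 and mature replicates 1 and 2. TT10, the laccase gene that browns the coat, was abundant at both stages with 25665, 26520.4 and 47710.4 and 24839.8, 20896 and 18736. Its call (-0.63 ± 0.28, adjusted p 0.0481) was lost without bent replicate 3 (adjusted p 0.432) and without mature replicate 2 or 3. Mucilage is the pectin of the outer coat that swells when the seed is wetted. Of 16 genes 2 rose and 12 fell, against 23.4% and 27.0% of all genes, with a median of -0.98. Without bent replicate 3 these counts were 1 and 11 (23.4% and 24.3% of all genes), with a median of -0.73. With library totals none rose and 13 fell (11.4% and 40.1%). MUM4, a rhamnose synthase gene, fell from 18152, 17470.1 and 33017 to 5279, 3659 and 3685 (-2.44 ± 0.26), MUM2, a galactosidase gene, by 1.48 and the regulator GL2 by 1.41 on the log2 scale. The peroxidase gene AT3G50990 (PER36) changed most (-2.80 ± 0.91). The NAC gene NAM rose (0.40 ± 0.13). The summed normalised counts of the tannin genes were 54166 to 91694 in bent and 32078 to 42011 in mature seeds, and those of the mucilage genes 87462 to 142604 and 41133 to 52177.

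Markers of the endosperm did not move one way. Of 9 tested genes 2 rose and 4 fell, against 23.4% and 27.0% of all genes, with a median of -1.18. EPR1, which encodes an extensin-like protein of the endosperm that faces the root tip, was among the most abundant genes, with 45462, 62361 and 81824 in bent and 190966, 186389 and 172050 in mature seeds (1.53 ± 0.57, adjusted p 0.0164). Its call was lost without bent replicate 1. ALE1, the subtilase gene of the endosperm, fell from 2345, 2243 and 2607 to 681, 371 and 389.6 (-2.32 ± 0.25), its regulator RGE1 (ZOU) by 1.18 and FIS2, a Polycomb gene, by 3.13 on the log2 scale, the last being the largest change. MEA, another Polycomb gene, rose from a mean of 57.6 to 122 normalised counts (1.07 ± 0.24, adjusted p 5.29e-05). Without bent replicate 3 its change was 0.85 (adjusted p 0.00234). EPR1 made up most of the summed level of the list, which was 48522 to 85191 normalised counts in bent and 172866 to 192075 in mature seeds. WRKY10 (MINI3), a factor of early endosperm, was at no more than 3 counts in each of the 6 libraries. The 5 pollen genes, a measure of flower tissue, passed no test, and their summed counts of 752 to 1625 in bent and 364 to 1417 in mature seeds overlapped. VGD1 was lowest in mature replicate 1, at 76.5 against 250.4 and 317. The part of changing tissue proportions in the results above was not tested.

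Transport genes that supply the embryo rose in part. Of 16 sugar and amino acid transporter and invertase genes 7 rose and 2 fell, against 23.4% and 27.0% of all genes. Their median was 0.18 (0.39 without bent replicate 3 and -0.03 with library totals). UMAMIT24, an amino acid exporter gene, changed most, from 162, 86.2 and 90.5 to 737, 639 and 691 (2.61 ± 0.31). UMAMIT28 rose from 193, 266 and 206 to 887, 727 and 767 (1.84 ± 0.24), SIAR1 by 1.41 ± 0.14, and the sugar exporter genes SWEET11 and SAG29 (SWEET15) by 0.53 ± 0.19 and 0.79 ± 0.23. The call of SWEET11 was lost without bent replicate 1 or 2 or mature replicate 1. The sucrose carrier gene SUC5 fell from 2356, 2334 and 2945 to 1251, 917 and 829 (-1.35 ± 0.15). At 27 °C the change of this list was lower than at 23 °C for 8 genes (3.28% of all genes) and higher for 1 (2.22%). That of UMAMIT28 was 0.03 at 27 °C (interaction adjusted p 8.86e-06), and that of UMAMIT25 was -0.61 against 0.75 at 23 °C (interaction adjusted p 3.12e-06).

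More heat shock protein genes fell than rose at the control temperature. Of 67 tested genes 7 rose and 31 fell, against 23.4% and 27.0% of all genes, with a median of -0.47. Bent replicate 3 was the highest bent library for 29 of these genes and bent replicate 2 for 27. The largest change was that of AT1G53540, a small heat shock protein gene, with 10.2, 318 and 33.8 in bent and 7.18, 8.51 and 4.75 in mature seeds (-4.15 ± 0.84). Without bent replicate 2, 7 genes of the list rose and 26 fell, and without bent replicate 3, 9 and 31. HSP60, a mitochondrial chaperonin gene, fell from 2467, 2420.2 and 3832 to 1379, 1099 and 1133 (-1.27 ± 0.16), whereas HSP101, a disaggregase gene of the seed, rose from 617, 652 and 895 to 1609.8, 1642 and 1493 (1.13 ± 0.22). Of 16 tested heat shock factor genes 7 rose and 1 fell, against 23.4% and 27.0% of all genes. The counts were 5 and 2 without bent replicate 3, and 3 and 2 with library totals. The largest change was that of HSFA6B (1.73 ± 0.43) at low counts. Lipid transfer proteins and protease inhibitors, a large family, had 18 of 69 tested genes higher and 23 lower, against 23.4% and 27.0% of all genes. The largest change there was that of AT5G13900 (6.44 ± 0.75), from 3.72, 0.958 and 0 to 116, 167 and 153.

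The genes with the largest changes were named by a fixed rule. Each had to be called, average 100 normalised counts or more over the 6 libraries, show no overlap between stages and have both means above 3. The 10 largest increases included CYP86A1 and ABCG6 of the suberin list. The first was AT5G37690 (chromosome 5, 14973353 to 14976229), an SGNH hydrolase-type esterase gene, with 2.79, 29.7 and 1.21 in bent and 1247, 709.9 and 1132 in mature seeds (6.51 ± 0.91, adjusted p 9.9e-12). RBOHA, an NADPH oxidase gene, went from 6.51, 9.58 and 0 to 305, 440 and 407 (6.12 ± 0.73). AT5G44550 and AT4G03540 of the UPF0497 (CASP-like) membrane protein family rose by 6.22 ± 0.86 and 5.94 ± 0.61, and the dirigent gene AT2G21100 by 5.96 ± 0.67. The transcription factor gene WRKY56 rose from 7.44, 1.92 and 0 to 149.5, 250.4 and 194 (5.89 ± 0.60). The neighbouring genes AT2G41400 and AT2G41390 of the Ole e 1 family rose by 6.08 ± 1.18 and 5.96 ± 1.10. In all 10 genes the highest bent library was replicate 1 or 2, never replicate 3. All 10 were called higher at 25 °C too (23.4% of all genes) and 2 at 27 °C (24.6%), where 8 had a smaller change by the interaction test. These genes were chosen on the 23 °C libraries that this test shares, so the last count is not independent of the choice. A gene at the floor in bent seeds was WRKY43, with 0.93, 0.958 and 2.41 normalised counts in bent and 112, 92.4 and 112 in mature seeds, at least 35.2-fold higher against a floor of 3 counts per library.

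The 10 largest decreases were led by LCR47, a cysteine-rich peptide gene, from 256, 108 and 259 to 0, 12.2 and 0 (-5.69 ± 1.17, adjusted p 6.69e-06). The dirigent gene AT4G11180 (chromosome 4, 6820033 to 6820747) was far more abundant, at 10643, 9608 and 16744 in bent and 683, 214 and 184 in mature seeds (-5.10 ± 1.01). CYP86C1 (chromosome 1, 8699650 to 8701458), a cytochrome P450 gene of the family of CYP86A1, fell from 1048, 906 and 951 to 46.6, 23.1 and 21.4 (-4.99 ± 0.29, adjusted p 2.65e-62), with little spread among the bent libraries. JMT, the jasmonate methyltransferase gene, fell from 4521, 3929 and 6463 to 250, 131 and 93.8 (-4.97 ± 0.83), and GILT, encoding a thiol reductase-like protein, from 11461, 9275 and 27276 to 1002, 409.6 and 361 (-4.76 ± 0.38). Pectin-modifying genes were AT1G09550, a pectin acetylesterase (-4.52 ± 0.41), and AT4G15750, a pectin methylesterase inhibitor (-4.63 ± 0.47). AT5G05030 and the OFP15-like repressor gene AT3G52550 changed by -4.92 ± 0.93 and -4.75 ± 0.34, and LDOX completed the 10. Bent replicate 3 was the highest bent library in 8 of the 10, and mature replicate 1 the highest mature library in 8. Of these 10 genes 9 were called lower at 25 °C (22.5% of all genes) and 10 at 27 °C (23.9%). AT4G28380, a leucine-rich repeat gene, was at the floor in mature seeds (2.39, 1.22 and 2.38) and at 113, 23 and 444 in bent seeds, at least 64.5-fold lower in mature seeds. This bound rested on bent replicate 3, and without that library it was 22.7-fold. By difference in normalised counts, the 5 largest increases were CRU3, SESA3, SESA2, CRU2 and SESA4. The 5 largest decreases were AT5G38170, a lipid transfer-like gene (64728, 66994 and 130821 to 40239.5, 28339 and 25909, -1.47 ± 0.25), the pectin methylesterase gene ATPMEPCRD (-3.55 ± 0.66), GRP7, an RNA-binding protein gene of the circadian clock (56379, 57368 and 104133 to 41578, 40637 and 42518, -0.80 ± 0.15), LTP4 (-3.03 ± 0.25) and MLP28 (-2.30 ± 0.28). In each of these 5, bent replicate 3 was 1.58 to 1.95 times the next bent library, and for GRP7 the change was -0.45 without it.

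**Figure D5:**
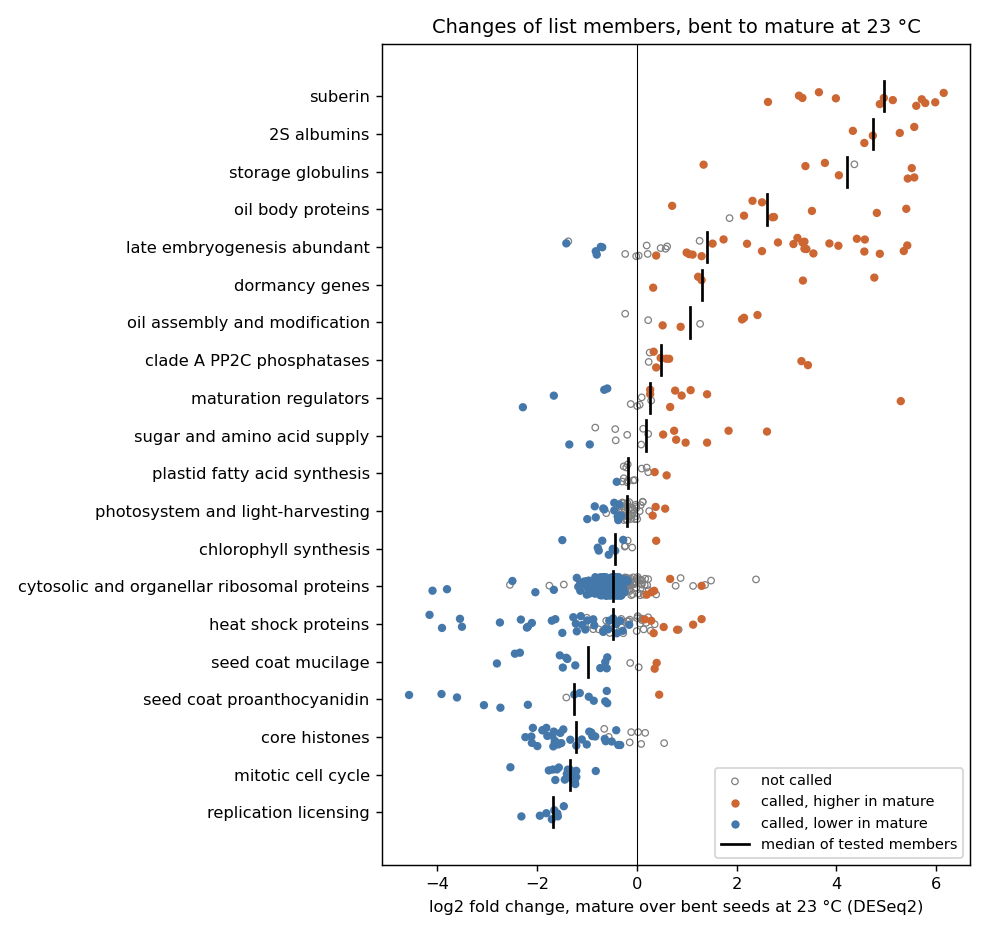
Log2 fold change of mature over bent seeds at 23 °C (x axis) for each tested member of 20 gene lists (y axis). Filled points passed the test (DESeq2, adjusted p under 0.05), open points did not, and the bar is the median of the tested members. The medians of the suberin, 2S albumin and storage globulin genes lie furthest to the right (4.95, 4.73 and 4.20), and those of the division genes furthest to the left (-1.68 and -1.33).

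Across genes, the change from bent to mature at 23 °C was compared with that at 25 °C and at 27 °C. These contrasts share no library with it, but all come from 1 fit with a shared estimate of spread per gene. The overlap of calls is therefore not fully independent. Of the 5017 genes higher at 23 °C, 98.4% had the same sign and 79.4% were called higher at 25 °C, and 93.4% and 72.0% at 27 °C. Of the 5780 lower genes these shares were 97.2% and 70.4% at 25 °C and 94.5% and 68.8% at 27 °C. Of all genes, 23.4% were called higher and 22.5% lower at 25 °C, and 24.6% and 23.9% at 27 °C. The test of the difference called 8 genes with a higher change at 25 °C (0.0373%) and none with a lower one (0.0%), but DESeq2 withheld the adjusted p of 17466 genes there. At an unadjusted p under 0.05 there were 1043 and 388 genes, and edgeR called none, with 734 and 490 at an unadjusted p under 0.05. Without bent replicate 1, 387 genes had a higher change at 25 °C, and without bent replicate 2, 116. At 27 °C the change was higher for 476 genes (2.22%; 760 without bent replicate 2 and 299 without mature replicate 2) and lower for 703 (3.28%), and edgeR called 328 (1.53%) and 602 (2.81%). None of the 23 storage and oil body genes was among them. DESeq2 withheld the p of CRA1 and AT3G01570, so it could not call these 2. Heart replicate 1 also entered the estimate of spread for these genes, so the absence of calls does not show an unchanged response. The change of CRU3 was 4.35 at 27 °C and 7.66 at 25 °C against 5.51 at 23 °C, and the median of the 23 genes was 3.43 at 27 °C, 4.86 at 25 °C and 4.05 at 23 °C. Among the core histones 9 of 41 had a higher change, that is a smaller fall, at 27 °C.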

How the data were processed

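The authors deposited 1 table of estimated counts per transcript, made from 50-base reads of enriched mRNA by Salmon on Araport11 transcripts. The sources used here give no strand setting. Estimated counts of 48268 transcripts were summed to 27587 loci and rounded (61.5% of the values were not whole), and 99.3% of the loci matched RefSeq (TAIR10.1), which gave names, coordinates and promoters. Genes that reached 10 counts in 3 or more libraries were tested with DESeq2 1.42.0 (R 4.3.3), as in the study's methods, over all 27 libraries in 9 groups (size factors by median of ratios, adjustment by Benjamini-Hochberg). Differences between temperatures were interaction terms. Values with ± are log2 fold changes and SE unless stated. TPM were computed from counts and effective lengths. edgeR 4.0.16 (quasi-likelihood, TMM), other scalings, filters, sample sets, a replicate block and leaving out each library were alternatives. On simulated data for the comparison at 23 °C (21005 genes), DESeq2 recovered 58.2%, 85.1% and 98.5% of changes of 1.5, 2 and 4-fold, with 24 false calls. edgeR gave 4 false calls. Only 67, 67 and 66 genes were changed by these sizes. The simulation held no broad change and no library like bent replicate 3, so it does not measure the errors in these data.

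The members and gene lists were chosen with earlier results of these data known. Named genes were the 10 largest changes per direction (adjusted p under 0.05, mean of 100 normalised counts or more, no overlap, both group means above 3), the 5 largest differences in counts per direction, up to 3 per direction at the floor of 3 counts in 1 stage, and list members, with the largest called change of each list.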

Additional observations from a re-analysis of the deposited data

Results flagged for a closer look

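Of 159 genes named here, 36 had a change from bent to mature seeds at 27 °C that differed from that at 23 °C by the test of the difference itself (DESeq2 interaction, adjusted p under 0.05). It was lower for 33 and higher for 3, and edgeR called 28 of the 36. Of all genes, DESeq2 called 3.28% lower and 2.22% higher, and edgeR 2.81% and 1.53%. Since many of the 159 genes were named for a large change at 23 °C, and both tests share the 23 °C libraries, the direction of these differences is not independent of the choice.

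Of the 36, 10 were suberin genes, and 6 others were among the 10 largest increases. The log2 change at 27 °C minus that at 23 °C was -5.73 for ABCG6, -5.21 for MYB9, -4.81 for CYP86A1, -4.44 for GPAT5, -4.33 for RWP1, -4.08 for MYB107, -4.05 for ABCG20, -3.72 for FAR5, -1.94 for ABCG2 and -1.40 for CYP86B1. It was -5.88 for AT4G03540, -5.79 for AT2G21100, -5.75 for RBOHA, -5.56 for WRKY56, -5.36 for AT5G44550 and -5.22 for AT5G37690. WRKY43, at the floor in bent seeds at 23 °C, had -5.06, AT5G13900 of the lipid transfer family -6.44 and AT1G54540 of the hydroxyproline-rich family -3.58. Bent seeds at 27 °C averaged 63.8 normalised counts of AT5G13900, against 1.56 at 23 °C.

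Supply genes had a lower change at 27 °C in UMAMIT28 (-1.81), UMAMIT25 (-1.35), SAG29 (-1.01), SUC5 (-0.92) and SIAR1 (-0.64). NCED6 differed by -1.33, since it rose at 23 °C and had a change of -0.01 at 27 °C. The other lower ones were GILT (-1.80), ALE1 (-1.64), LEA4-5 (-1.56), DML3 (-1.52), AT5G15750 (-1.24), RGE1 (-0.97), GID1A (-0.66) and MUM2 (-0.63). Higher at 27 °C were the changes of AT1G53540 (3.62), which rests on bent replicate 2 at 23 °C, TT4 (1.28), which fell at 23 °C and had 0.41 at 27 °C, and STS (1.19).

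Against 25 °C, AT2G41390 differed by 8.14 and FACT by 5.95. AT2G41390 was at 0 in all bent libraries at 25 °C, so its fitted value is not a measured fold. FACT held 4778, 330 and 47.4 normalised counts in mature replicates 1, 2 and 3 at 25 °C, so replicate 1 stood far above the others there. At 23 °C FACT was low in mature replicate 1, as described above. edgeR called neither.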

How the results depend on the processing

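With all 27 libraries, 5017 genes were higher and 5780 lower. edgeR gave 5087 and 5641, TMM factors 5091 and 5717, no filter on low counts 5020 and 5760, an adjusted p under 0.01 3965 and 4617, and a fit of the 6 libraries alone 3488 and 3883. Scaled to library totals, 2451 were higher, with 8599 lower. Leaving out 1 of the 6 libraries gave 4364 to 5024 higher and 5020 to 5787 lower. Replicate numbers are shared between groups, but the deviations of same-numbered bent and mature libraries correlated at only -0.044, -0.101 and -0.034. No library correlated best with its own number, so no pairing by number was seen. With 3 libraries a stage this cannot exclude shared plants or batches. With the number as a replicate block, 5012 were higher and 5697 lower in the fit of 27 libraries, and 2480 and 2789 in the fit of 6.

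The count of genes whose change was higher at 25 °C than at 23 °C was 8, and 1 with library totals (2 lower), 0 with the replicate block and 0 with edgeR. It was 1 to 387 when 1 library was left out, with 387 without bent replicate 1 and 116 without bent replicate 2. At 27 °C it was 476, and 190 with library totals, with 299 (without mature replicate 2) to 760 (without bent replicate 2) when 1 library was left out. Without heart replicate 1, chosen after seeing the data, the counts were 23 higher and 3 lower at 25 °C. The cause was not tested.

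Of 154 named genes, library totals ended the call of 11. Among all 159, the direction turned for 4 genes, none of which passed the test with all libraries. BZIP53 had -0.12 with library totals and -0.08 to 0.34 when 1 library was left out, NF-YB6 -0.18 and -0.12 to 0.25, BCCP2 0.02 with the replicate block in 6 libraries and -0.19 to 0.30, and VGD1 -0.64 to 0.16. The difference in the share of the 20 most abundant genes was 13.4 to 14.6 percentage points when 1 library was left out, that of chloroplast loci -0.00296 to -0.000855 and that of mitochondrial loci 5e-06 to 0.00059.

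Depth limits genes near the floor of 3 counts, and 3 libraries a stage limit the tests of shares. Estimated counts cannot separate near-identical copies, and the strand setting is not given in the sources used here, so a gene and its antisense partner cannot be told apart.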

Other observations

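Outside the lists and the naming rule, several regulators changed strongly with little spread, and they were chosen after their values were seen. MYB60, known as a guard cell factor in leaves, held 204, 129 and 189 normalised counts in bent and 2294, 2604 and 2609 in mature seeds (log2 fold change 3.85 ± 0.23, adjusted p 2.6e-59). NAC3 (AT3G15500) rose from 48.4, 72.8 and 50.7 to 495, 665 and 620 (3.37 ± 0.32), and NAC010 from 84.6, 57.5 and 72.4 to 545, 502 and 529.7 (2.88 ± 0.18). RD26, a NAC gene of the drought response, rose from 201, 211 and 146 to 940.1, 924 and 850.4 (2.28 ± 0.23). The change of RD26 at 27 °C was -0.10 (adjusted p 0.738). There MYB60, NAC3 and NAC010 changed by 1.06, 2.43 and 1.26, each less than at 23 °C.

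Regulators that fell were MYB11, a flavonol factor, from 951, 756 and 1042 to 86.1, 48.6 and 42.8 (-3.95 ± 0.27, adjusted p 3.76e-47), and WOX8, a homeobox gene of the early embryo, from 318, 315 and 253 to 46.6, 31.6 and 29.7 (-3.04 ± 0.26). Both had like changes in the libraries of 27 °C (-4.12 and -2.98). AT1G62000 was among the most abundant transcripts of mature seeds, at 210636, 220966 and 229815 normalised counts, from 14493, 5542 and 11253 in bent seeds (4.40 ± 0.80), and bent replicate 2 was the lowest library. The change of AT1G62000 at 27 °C was 1.71 and did not pass the test (adjusted p 0.063).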
